A study of Mus musculus with 2 samples.

Results

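Matrix metalloproteinases are zinc-dependent enzymes that cut collagens, gelatin, elastin and other proteins of the extracellular matrix. They are made as inactive proenzymes, opened by other proteases and blocked by the tissue inhibitors of metalloproteinases, the Timp proteins. In mammary tumours, fibroblasts and infiltrating myeloid cells are known to make many of them alongside the carcinoma cells. The 10 genes described here were chosen by symbol, and 10 of 10 were found among the 32285 features of both libraries. They are the gelatinases Mmp2 and Mmp9, the stromelysins Mmp3 and Mmp11, the collagenases Mmp8 and Mmp13, the macrophage elastase Mmp12, the membrane-bound Mmp14, the secreted Mmp19 and the inhibitor Timp1.

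Tumours grown from 4T1 cells, a mouse mammary carcinoma line, were dissociated and read by droplet single-cell RNA sequencing with a 3′ kit. In each mouse, 1000000 cells in Matrigel and saline buffer had been placed in the mammary fat pad. The beta-elemene group received 30 mg/kg of beta-elemene, a plant-derived terpene, into the peritoneum every day for 18 days. The vehicle group received the same volume of normal saline. Each group is 1 library, and the number of tumours in it, the mouse strain, sex and age are not given in the sources used here. No difference between the groups therefore has a replicate check or a test, and every interval below is a 95% interval for counting error alone.

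There were 157282740 UMIs on 11539 barcodes in the beta-elemene library and 168750895 UMIs on 11324 barcodes in the vehicle library. After filtering, 10570 beta-elemene cells and 10468 vehicle cells were kept, and 37 barcode sequences occurred in both libraries. The cells were clustered without the 10 genes and without a wider list of 55 family genes, regulators and substrates, so that none of these made the clusters. The classes were rebuilt from clusters, stand for macrophage-like, fibroblast-like cells and so on, and may differ from the authors' own. Of the kept cells, 766 in beta-elemene and 700 in vehicle lay in clusters that the markers did not name. The tissue label reads breast, and 3076 beta-elemene and 3941 vehicle cells were malignant cells by a list of keratins, claudins and Epcam. That list, with 10 of 10 genes detected, summed to 5713 CPM in beta-elemene and 4779 CPM in vehicle malignant cells. CPM is the UMIs of a gene per 1000000 UMIs of all genes in the same class and library.

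Mmp13, Mmp12, Mmp3 and Mmp8 lie in 1 stretch of 296 kb, chr9:7272514-7568485 in the mouse build GRCm38. The other genes are apart from it: Mmp2 at chr8:92827291-92853420, Mmp9 at chr2:164940780-164955850, Mmp11 at chr10:75923222-75936496 and Mmp14 at chr14:54431612-54445364. Mmp19 is at chr10:128790910-128800824 and Timp1 at chrX:20870166-20874735. Mmp11 is on the minus strand and the other 9 genes are on the plus strand. The start regions of the 4 chromosome 9 neighbours are shown because these neighbours differed in the class where they were highest: macrophages for Mmp13 and Mmp12, fibroblasts for Mmp3 and neutrophils for Mmp8. RefSeq windows of 300 bases, 250 before and 50 after a start, matched 7 of the 10 genes. Mmp2, Mmp9 and Mmp19 had no window among them. Capitals mark TGANTCA, the letters bound by AP-1, a transcription factor known to switch on several metalloproteinase genes; the letters read the same on both strands. The sequences are from GRCm38.p6, plus strand, 5′ to 3′. The Mmp13 window is chr9:7272264-7272563, the Mmp12 window chr9:7347124-7347423, the Mmp3 window chr9:7445572-7445871 and the Mmp8 window chr9:7558179-7558478.
Mmp13: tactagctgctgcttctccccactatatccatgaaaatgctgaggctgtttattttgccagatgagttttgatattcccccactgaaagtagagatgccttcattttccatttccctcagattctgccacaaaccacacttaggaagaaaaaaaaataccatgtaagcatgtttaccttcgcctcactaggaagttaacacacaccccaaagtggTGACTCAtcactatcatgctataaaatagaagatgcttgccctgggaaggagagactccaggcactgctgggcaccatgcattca
Mmp12: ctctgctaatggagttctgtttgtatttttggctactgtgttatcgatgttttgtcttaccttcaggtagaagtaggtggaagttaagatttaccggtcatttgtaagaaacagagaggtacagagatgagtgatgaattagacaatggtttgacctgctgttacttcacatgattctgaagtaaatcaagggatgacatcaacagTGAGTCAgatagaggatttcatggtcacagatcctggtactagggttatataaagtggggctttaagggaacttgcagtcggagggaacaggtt
Mmp3: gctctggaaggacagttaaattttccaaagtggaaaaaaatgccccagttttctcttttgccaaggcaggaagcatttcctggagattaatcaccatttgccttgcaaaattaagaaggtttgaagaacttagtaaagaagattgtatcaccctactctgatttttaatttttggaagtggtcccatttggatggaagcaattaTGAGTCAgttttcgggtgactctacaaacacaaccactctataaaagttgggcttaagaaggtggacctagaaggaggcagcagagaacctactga
Mmp8: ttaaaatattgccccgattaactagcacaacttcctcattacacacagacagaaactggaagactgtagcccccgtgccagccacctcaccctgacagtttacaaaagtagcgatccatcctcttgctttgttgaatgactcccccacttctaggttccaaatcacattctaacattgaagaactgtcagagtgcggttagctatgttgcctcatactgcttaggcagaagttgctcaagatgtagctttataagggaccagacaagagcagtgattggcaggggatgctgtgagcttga
The letters begin 35 bases before the start in Mmp13, 44 bases before it in this Mmp12 window and 46 bases before it in Mmp3, and are not in the Mmp8 window. The window of another Mmp12 start, at chr9:7344147-7344446, does not hold them. Of the 7 matched genes, 3 hold them in a window, against 8.97% of the 27025 genes and 7.81% of the 32851 windows in the table. A match is a run of letters and not a measured site, and binding was not measured here.

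Over the 8 classes that reached 100 cells in both libraries, each gene had its highest level in the same class in both libraries. That class was the fibroblasts for Mmp2, Mmp3, Mmp14 and Timp1, the neutrophils for Mmp8 and Mmp9, the macrophages for Mmp12 and Mmp13, the malignant cells for Mmp11 and the monocytes for Mmp19. Over 6 other clusterings this order held, except that Mmp12 was highest in vehicle monocytes when each library was clustered alone, and Mmp9 was highest in beta-elemene monocytes when called doublets were kept.

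**Figure D1:**
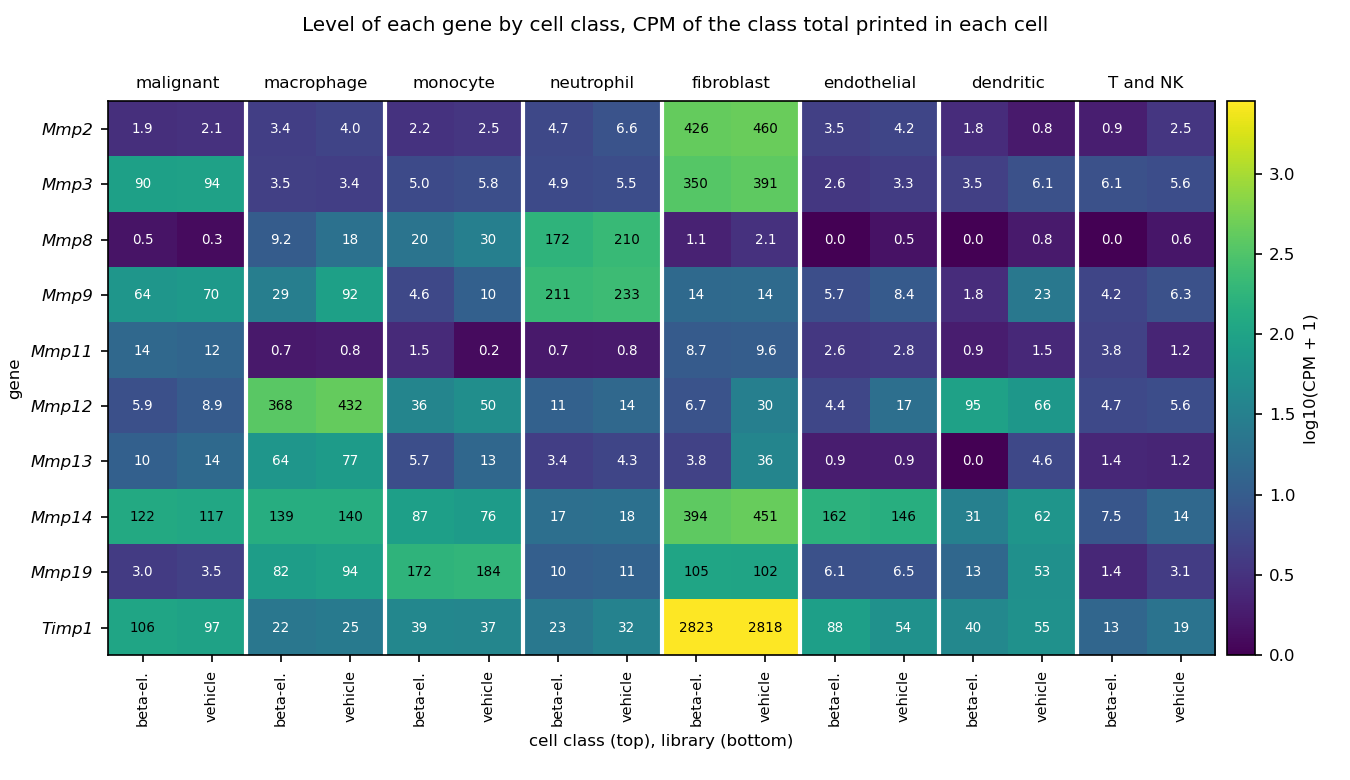
Level of each of the 10 genes (rows) in each cell class (column pairs, beta-elemene left and vehicle right); the colour is log10(CPM + 1) and the printed number is the CPM of the class. Timp1 in fibroblasts, at 2823 CPM in beta-elemene and 2818 CPM in vehicle, is the highest value printed, and each gene has its peak in the same class in both libraries.

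Of 80 pairs of a gene and a class, 41 had at least 100 UMIs over both libraries, the minimum set for a ratio. A pair was past the fold where beta-elemene over vehicle was at least 1.5 or at most its inverse. By that rule 1 pair was higher in beta-elemene (Timp1 in endothelial cells), 6 were lower and 34 were neither. Over all genes and classes, 4.75% of pairs were past the same fold, 1.64% higher and 3.11% lower, so lower pairs outnumbered higher ones there too. The 6 lower pairs were Mmp8 and Mmp9 in macrophages, Mmp12 in malignant cells, Mmp12 and Mmp13 in fibroblasts and Mmp14 in dendritic cells. Over the measured members the median log2 ratio was -0.23 in macrophages, -0.14 in fibroblasts, -0.11 in malignant cells, -0.21 in neutrophils and -0.1 in monocytes. Over all genes it was -0.02, 0.05, -0.02, -0.02 and 0.0 in the same classes. The member median was -0.47 in dendritic cells, with 3 measured members, and 0.42 in endothelial cells, with 2. Over all genes it was -0.02 and 0.07 there. None of the 10 genes was past the fold in the class where it was highest, where the ratios ran from 0.82 for Mmp8 to 1.08 for Mmp11.

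**Figure D2:**
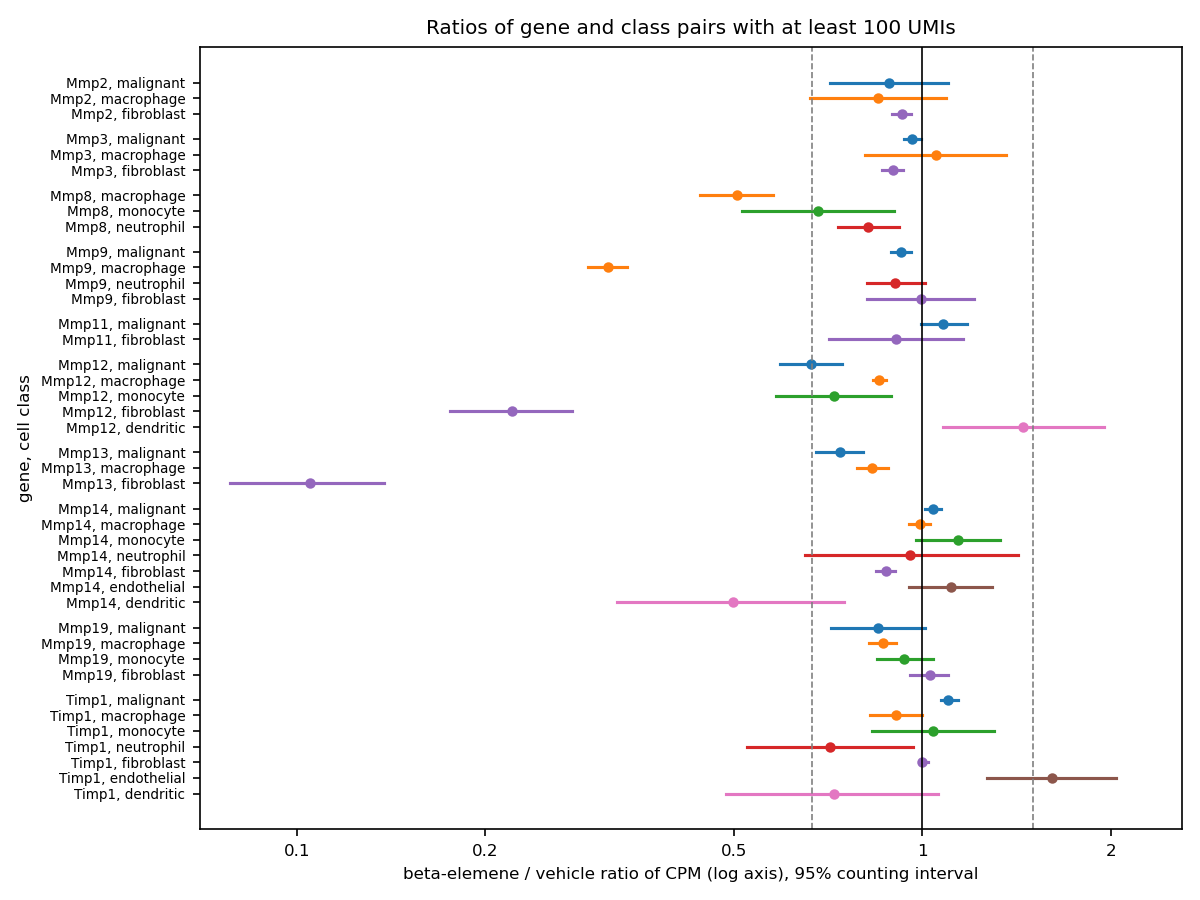
Ratio of beta-elemene to vehicle CPM (log axis) with its 95% counting interval for the 41 measured pairs, coloured by class; the solid line is 1 and the dashed lines are the 1.5-fold limits. The points for Mmp13 and Mmp12 in fibroblasts (0.105 and 0.221) and for Mmp9 in macrophages (0.314) lie farthest from 1.

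Mmp2, which cuts gelatin and basement membrane collagen, was a fibroblast transcript. It had 6375 UMIs in 648 beta-elemene fibroblasts and 6578 UMIs in 653 vehicle fibroblasts, or 426 CPM (interval 416 to 437) and 460 CPM (449 to 471). Fibroblasts held 95.1% of the beta-elemene library's Mmp2 and 94.1% of the vehicle library's. Among fibroblasts 88.6% and 88.2% of cells had a UMI, against 0.599% and 1.35% of T and NK cells, which serve here as the measure of free RNA. Depth differs: the median fibroblast had 21830.5 and 20820 UMIs and the median T or NK cell 5437 and 4559. The highest single cell held 65 and 83 UMIs. The ratio was 0.927 (0.895 to 0.959), where 4.21% of all genes in fibroblasts were past the fold.

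Fibroblasts fell into 10 sub-clusters, called states here, each named by its leading genes. States 0 to 3 had at least 50 cells in each library and were compared, and 5.85%, 6.54%, 10.2% and 9.32% of all genes were past the fold in states 0, 1, 2 and 3. Mmp2 was lowest in state 2, led by Krt19, Pgf and Tafa2, at 95.6 CPM in beta-elemene and 124 CPM in vehicle. It was 626 and 729 CPM in state 1, led by Veph1, Mcc and Psd3, and 819 and 797 CPM in state 3, led by Clec3b, Ly6c1 and Pi16, which are genes of universal-type fibroblasts. State 6, led by Reg3g, Lpl and Reg1, had 954 CPM in 45 beta-elemene cells and 782 CPM in 50 vehicle cells. In none of the 4 compared states was Mmp2 past the fold, with ratios from 0.769 to 1.03. The malignant list, which includes Krt19, summed to 477 CPM in beta-elemene and 513 CPM in vehicle in state 2. It summed to 102 and 114 CPM in state 0, 81.2 and 97.2 CPM in state 1 and 102 and 127 CPM in state 3. The fibroblast list summed to 18516 and 17133 CPM in state 2, the lowest of the 10 states. The part of malignant RNA in the state 2 values was not tested.

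**Figure D3:**
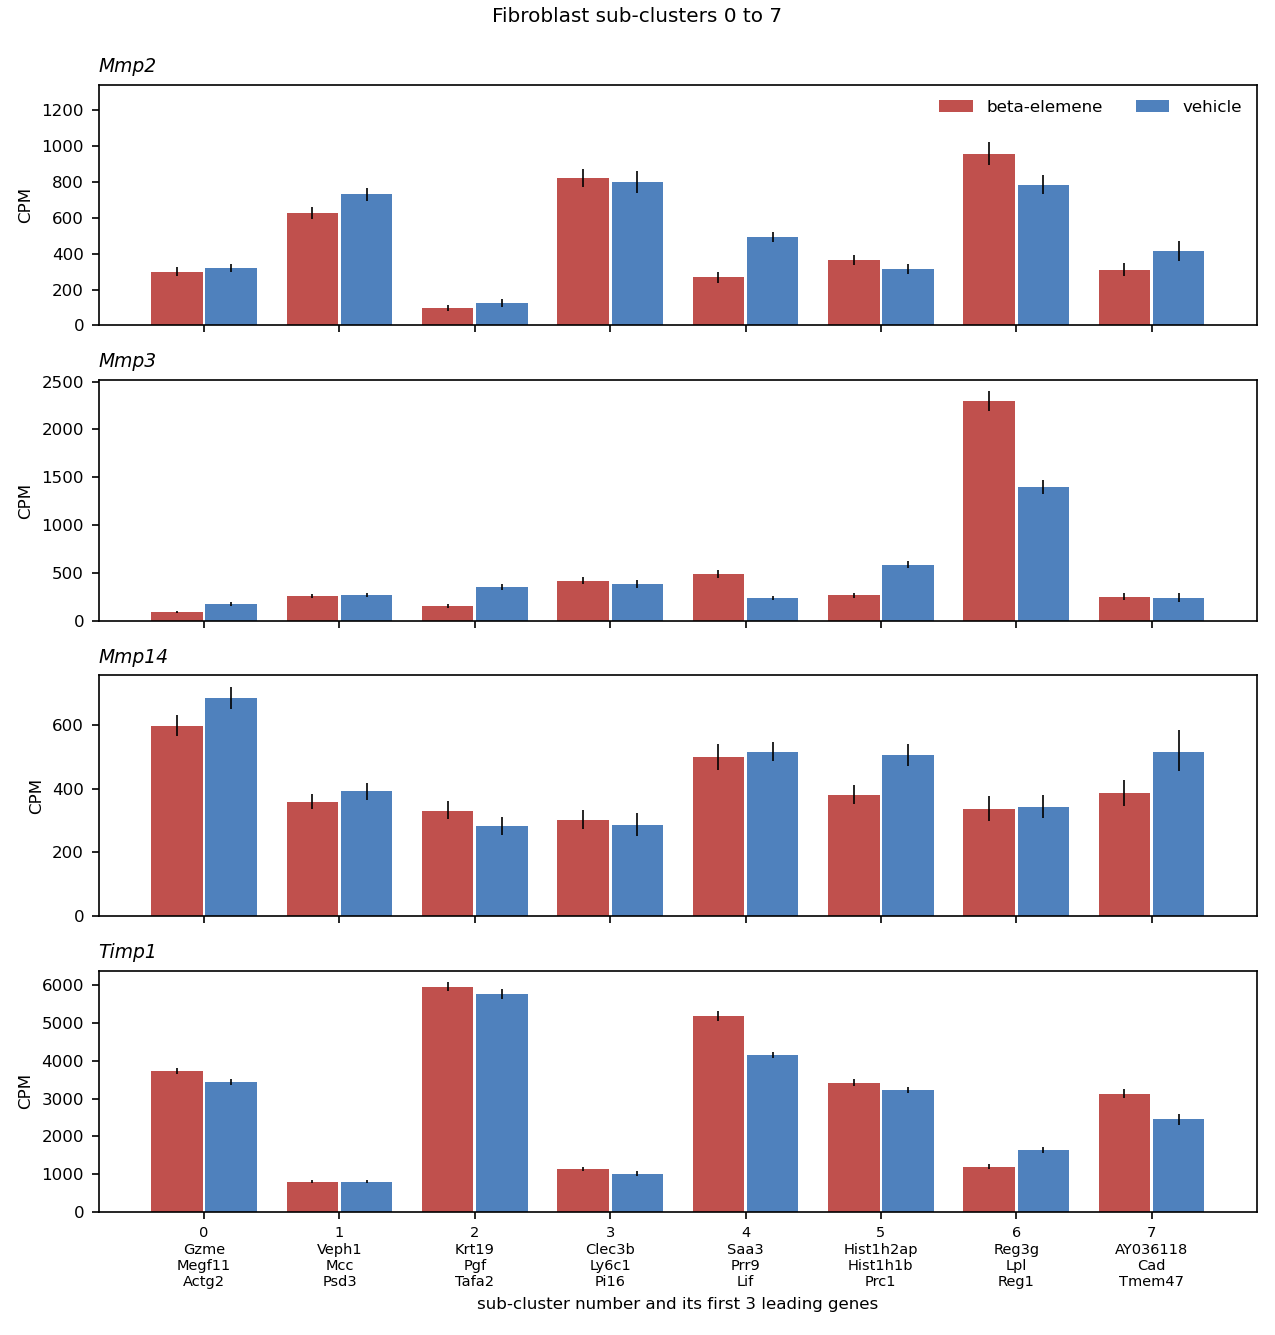
CPM of Mmp2, Mmp3, Mmp14 and Timp1 in fibroblast states 0 to 7 (x axis, with 3 leading genes each), beta-elemene bars left and vehicle bars right, with 95% counting intervals. Mmp3 peaks in state 6 (2293 and 1396 CPM), whereas Timp1 peaks in state 2 (5957 and 5756 CPM), where Mmp2 is lowest.

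Mmp9, the other gelatinase, was spread over more kinds of cell. Of the named classes it had its highest CPM in neutrophils, at 211 CPM (197 to 226) in beta-elemene and 233 CPM (215 to 253) in vehicle, with 27.6% and 29.0% of these cells carrying a UMI. No neutrophil had more than 13 UMIs in beta-elemene or 16 in vehicle. The most Mmp9 UMIs lay in malignant cells, with 5143 in beta-elemene and 6509 in vehicle, or 64.5 and 69.7 CPM. The beta-elemene to vehicle ratio was 0.905 (0.815 to 1.01) in neutrophils and 0.925 (0.891 to 0.959) in malignant cells, where 4.43% and 6.51% of all genes were past the fold.

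In macrophages Mmp9 was lower in the beta-elemene library, with 1014 UMIs in 2967 cells against 3359 UMIs in 2834 vehicle cells. The levels were 28.7 CPM (27.0 to 30.6) in beta-elemene and 91.7 CPM (88.6 to 94.8) in vehicle, a ratio of 0.314 (0.292 to 0.337). Mmp9 and Mmp8 were the 2 of 9 measured members past the fold in macrophages, where 2.42% of all genes were. The difference lay largely in cells with many UMIs. Cells with at least 10 Mmp9 UMIs numbered 23 in beta-elemene and 77 in vehicle macrophages and held 652 and 2703 UMIs. The other macrophages held 362 UMIs in beta-elemene and 656 in vehicle. With at most 10 UMIs counted from any cell the ratio was 0.431, and without the highest cell of each library (160 and 252 UMIs) it was 0.286. Any UMI of Mmp9 was found in 7.11% of beta-elemene and 13.1% of vehicle macrophages, against 2.4% and 3.38% of T and NK cells; the median macrophage had 11462 UMIs in beta-elemene and 12714 in vehicle. After thinning every cell to 1000 UMIs these shares were 1.55% and 3.8% in macrophages and 0.301% and 0.342% in T and NK cells.

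**Figure D4:**
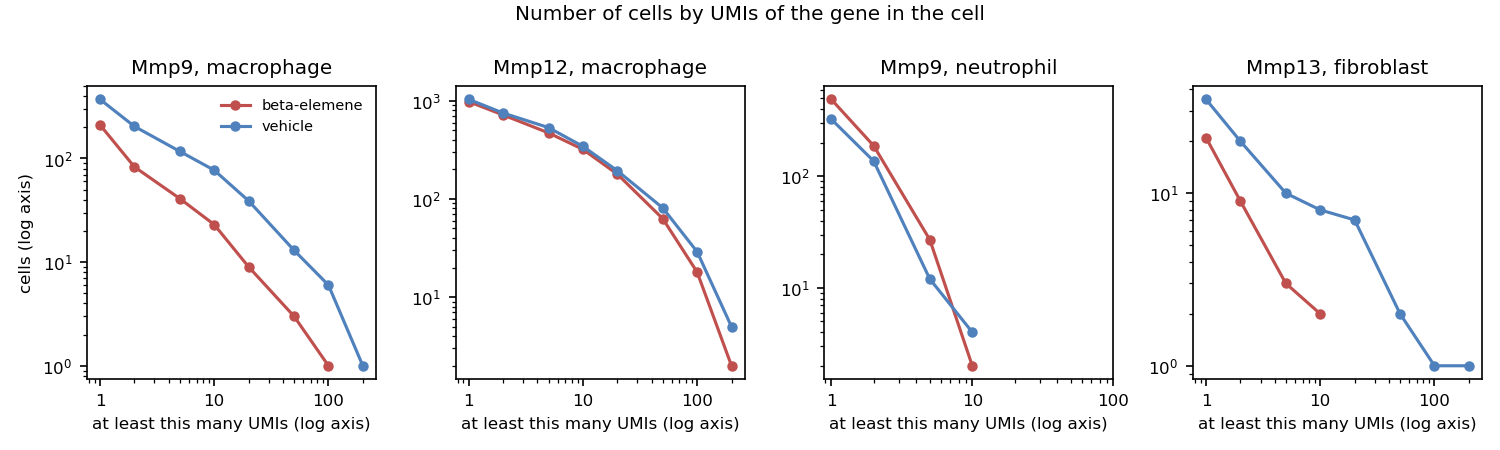
Number of cells (y, log axis) with at least the given number of UMIs of the gene (x, log axis), for beta-elemene and vehicle, in 4 pairs of a gene and a class. In macrophages 23 beta-elemene and 77 vehicle cells reach 10 Mmp9 UMIs, while for Mmp12 320 and 343 cells do.

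Macrophages formed 13 states, 9 of them with at least 50 cells in each library. In states 0 to 4 the share of all genes past the fold was 2.35%, 2.92%, 3.99%, 5.67% and 3.41%, and in states 5 to 8 it was 3.83%, 10.3%, 5.24% and 5.06%. Of the compared states Mmp9 was highest in state 3, led by Inhba, Cxcl3 and Nos2, with 368 UMIs in 273 beta-elemene cells and 1648 UMIs in 292 vehicle cells. That is 133 and 491 CPM, a ratio of 0.271 (0.242 to 0.304), with a UMI in 13.6% and 31.5% of the cells. The state's highest cell, with 252 UMIs, is the highest of all vehicle macrophages. Of 5 states with enough Mmp9 UMIs, 4 were lower past the fold. State 0, led by MHC class II genes, had a ratio of 0.242, state 1, led by Vcan and Hopx, 0.403, and state 4, led by histone genes, 0.158. State 5, led by Rnase2a, Fcrls and Fcna, was not past it, at 99.8 CPM in beta-elemene and 136 CPM in vehicle, a ratio of 0.732. Of its 261 beta-elemene UMIs 160 were in 1 cell, and without the highest cell of each library the ratio was 0.328, past the fold. State 5 held 183 beta-elemene and 316 vehicle cells; with the same mix of the 9 states given to both libraries the macrophage ratio was 0.364.

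The value for macrophages depended on which cells were counted among them. A cluster without a name, number 22, held 961 Mmp9 UMIs in 12 of 62 beta-elemene cells and 618 in 9 of 65 vehicle cells. Its highest cells had 223 and 257 UMIs, and it carried 11.6% of the beta-elemene and 5.38% of the vehicle library's Mmp9. In the Mmp9-positive cells of that cluster Ctsk, a collagen-cutting cathepsin known from osteoclasts, stood at 5863 CPM in beta-elemene and 5558 CPM in vehicle, against 8.65 and 14.8 CPM in macrophages. Acp5, the tartrate-resistant acid phosphatase, stood at 5530 and 7036 CPM, against 123 and 121 CPM in macrophages. C1qa, on the macrophage list, was at 726 and 79.9 CPM in these cells and 3770 and 3227 CPM in macrophages. The cluster and these genes were picked out after their values were seen, and no cell type is given to it. With the cluster added to the macrophages their Mmp9 ratio was 0.513.

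With each library clustered alone the ratio was 0.796, which is not past the fold. In that setting the beta-elemene macrophages held 1988 Mmp9 UMIs in 3212 cells at 54.4 CPM, and the vehicle macrophages 2217 UMIs in 2496 cells at 68.3 CPM. Of the vehicle cells counted as macrophages before, 526 became monocytes and took 1155 Mmp9 UMIs and 29 of the 77 cells with at least 10 UMIs with them. Of the beta-elemene cells, 91 became monocytes and took 5 Mmp9 UMIs. Over all kept cells of any class Mmp9 was at 56.2 CPM in beta-elemene and 72.2 CPM in vehicle, a ratio of 0.779 (0.757 to 0.801), with 8316 and 11478 UMIs.

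**Figure D5:**
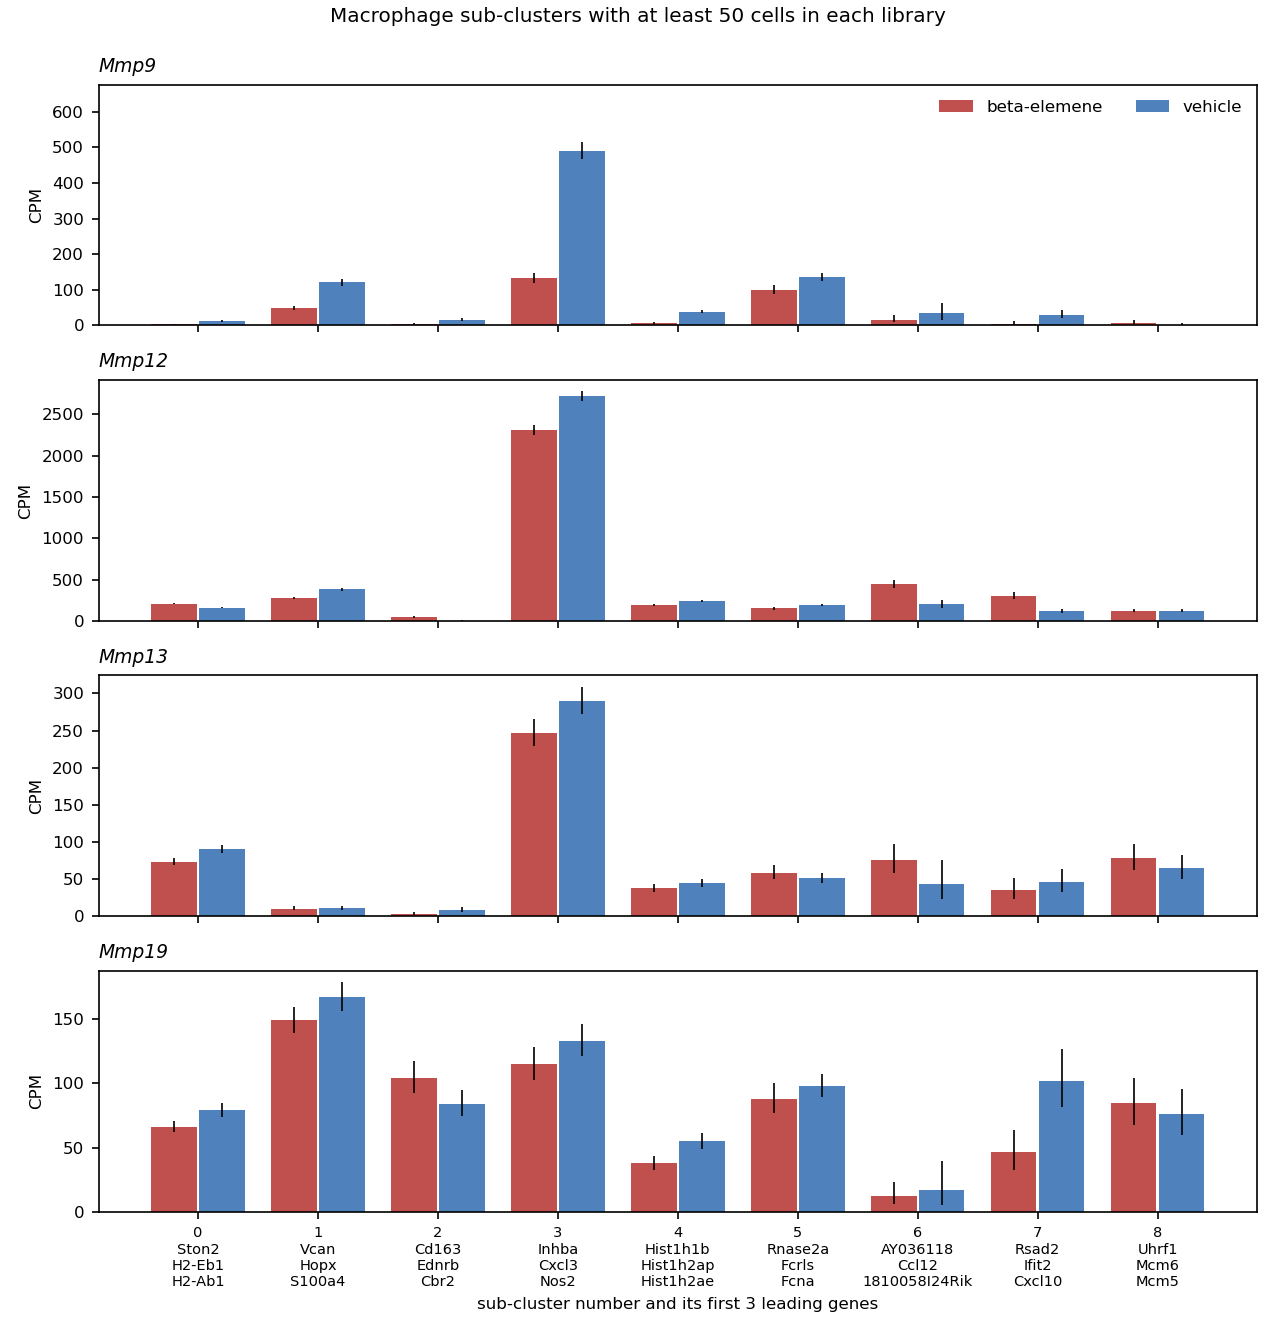
CPM of Mmp9, Mmp12, Mmp13 and Mmp19 in the 9 macrophage states compared (x axis, with 3 leading genes each), beta-elemene bars left and vehicle bars right, with 95% counting intervals. State 3 has the highest Mmp9 (133 and 491 CPM), Mmp12 (2309 and 2718 CPM) and Mmp13 (247 and 290 CPM), and Mmp19 is highest in state 1.

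Among malignant states Mmp9 was at 104 CPM in beta-elemene and 97.2 CPM in vehicle in the histone-led state 4, and at 81 and 91.4 CPM in state 1, led by the mitotic genes Pttg1 and Cdc20. Of 8 states with enough UMIs, 1 was past the fold in each direction and 6 were not, where the share of all genes past it was 2.45%, 3.58%, 2.87%, 4.02% and 5.31% in states 0 to 4 and 4.43%, 3.45%, 7.76% and 17.6% in states 5 to 8. Among compared neutrophil states Mmp9 was highest in state 4, led by Bcl2a1d, Klhl6 and Bcl2a1a, at 521 CPM in beta-elemene and 463 CPM in vehicle. The 4 measured neutrophil states had Mmp9 ratios of 0.834 to 1.33, none past the fold. The share of all genes past it was 6.17%, 5.82%, 8.01%, 10.5%, 10.9% and 29.0% in neutrophil states 0 to 5.

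Mmp3, the stromelysin that cuts proteoglycans and opens other proenzymes, came from fibroblasts and malignant cells. In fibroblasts it had 5243 and 5597 UMIs, or 350 CPM (341 to 360) in beta-elemene and 391 CPM (381 to 401) in vehicle, and in malignant cells 7196 and 8740 UMIs, or 90.2 and 93.6 CPM. The beta-elemene to vehicle ratios were 0.896 (0.863 to 0.93) in fibroblasts and 0.964 (0.934 to 0.994) in malignant cells. A UMI was found in 53.7% and 57.3% of fibroblasts, 39.3% and 39.2% of malignant cells, and 3.89% and 2.7% of T and NK cells. Fibroblast Mmp3 was uneven: 32 beta-elemene and 35 vehicle cells held 50% of it, and the highest cells had 304 and 494 UMIs. State 6, the Reg3g, Lpl and Reg1 fibroblasts, stood at 2293 CPM in beta-elemene and 1396 CPM in vehicle and held too few beta-elemene cells for a ratio call. Of the 4 compared states 2 were lower past the fold. State 0, led by Gzme, Megf11 and Actg2, had 91.9 CPM in beta-elemene and 178 CPM in vehicle, a ratio of 0.517 (0.433 to 0.615), and state 2 had 157 and 353 CPM, a ratio of 0.446 (0.381 to 0.52). These calls depended on the sub-clustering. At resolution 0.3 neither of 2 states was past the fold (0.958 and 1.03). At 1.0, of 6 states, 1 was lower and 1 higher (0.405 and 2.68). Without the highest cell of each library the ratios at 1.0 ran from 0.389 to 1.04, so none was higher past the fold.

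Mmp11, known as stromelysin-3 and described mostly in stroma next to carcinomas, was here highest in malignant cells among the 8 classes of at least 100 cells. Pericytes, too few to be compared, had 14 UMIs in 48 beta-elemene cells and 7 UMIs in 46 vehicle cells, or 26.6 CPM (14.5 to 44.6) and 14.7 CPM (5.93 to 30.4). Malignant cells had 1083 UMIs at 13.6 CPM (12.8 to 14.4) in beta-elemene and 1171 UMIs at 12.5 CPM (11.8 to 13.3) in vehicle, and fibroblasts had 8.69 and 9.57 CPM. The ratio was 1.08 (0.996 to 1.18) in malignant cells and 0.908 (0.708 to 1.16) in fibroblasts. It was thinly and evenly spread, with at most 6 UMIs in any malignant cell of either library. After thinning to 1000 UMIs, 1.51% of beta-elemene and 1.44% of vehicle malignant cells kept a UMI, against 0.602% and 0.342% of T and NK cells. Malignant and T or NK cells differ in depth before thinning, with medians of 22190.5 and 21136 UMIs in malignant cells. Mmp11 overlaps Chchd10 on the other strand. The strand setting of the counting is not given in the sources used here, so whether reads of the 2 genes were kept apart is not known.

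Mmp8, the neutrophil collagenase stored in granules, was highest in neutrophils at 172 CPM (159 to 185) in beta-elemene and 210 CPM (192 to 228) in vehicle, from 701 UMIs in 1776 cells and 537 UMIs in 1124 cells. The ratio was 0.82 (0.732 to 0.919). Neutrophils are shallow, with medians of 1981 and 1910.5 UMIs, and 17.5% and 15.5% of them had a UMI. Of the T and NK cells, 0 of 334 in beta-elemene had a UMI, which allows a share of up to 0.898%, and 1 of 296 in vehicle did. Of the compared neutrophil states Mmp8 was highest in state 1, led by Retnlg and Steap4, at 376 CPM in beta-elemene and 469 CPM in vehicle. In cells thinned to 1000 UMIs, Mmp9 was present in 22.0% of Mmp8-positive beta-elemene neutrophils and 16.2% of the Mmp8-negative ones, against 31.3% and 16.6% in vehicle.

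In macrophages Mmp8 had 325 UMIs in beta-elemene and 668 in vehicle, or 9.21 CPM (8.24 to 10.3) and 18.2 CPM (16.9 to 19.7). The ratio was 0.505 (0.441 to 0.578), and without the states led by neutrophil or malignant markers it was 0.526. With 10 CPM added to both libraries it was 0.681, not past the fold. The neutrophil marker list summed to 492 CPM in beta-elemene and 427 CPM in vehicle macrophages, with 9 of 9 genes detected in each. In state 11, of 33 and 18 cells, it summed to 12180 and 9415 CPM. In the states where Mmp8 was measured it summed to 380 CPM in beta-elemene and 383 CPM in vehicle in state 0, 301 and 372 CPM in state 1, 324 and 377 CPM in state 3 and 319 and 442 CPM in state 4. The part of neutrophil RNA in the Mmp8 value was not tested. No beta-elemene macrophage reached 10 Mmp8 UMIs and 11 vehicle macrophages did. Of 4 measured macrophage states 3 were lower past the fold, and the ratio was lowest in state 3, at 0.39 (0.306 to 0.493), with 34.4 CPM in beta-elemene and 88.2 CPM in vehicle.

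Mmp13, the collagenase of bone and cartilage, was highest in macrophages in this tumour. It had 2268 UMIs at 64.3 CPM (61.7 to 67.0) in beta-elemene and 2831 UMIs at 77.3 CPM (74.4 to 80.2) in vehicle macrophages, a ratio of 0.832 (0.787 to 0.88). A UMI was found in 19.3% and 20.1% of macrophages and in 0.898% and 0.676% of T and NK cells. Of the compared states it was highest in state 3 at 247 and 290 CPM, and in the 6 states with enough UMIs the ratios ran from 0.815 to 1.2. At sub-cluster resolutions 0.3 and 1.0 the lowest ratio was 0.198 and 0.63, with 1 state lower past the fold in each. The MHC class II state 0 had the most Mmp13 UMIs in both libraries, 955 and 996, at 73.5 and 90.2 CPM. At 5000 UMIs per cell, 28.2% of Mmp12-positive beta-elemene macrophages had Mmp13 against 8.37% of Mmp12-negative ones, and in vehicle the shares were 27.1% and 8.95%.

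Malignant cells held 25.8% of the Mmp13 of the beta-elemene library and 27.9% of that of the vehicle library. They had 841 UMIs at 10.5 CPM (9.84 to 11.3) in beta-elemene and 1333 UMIs at 14.3 CPM (13.5 to 15.1) in vehicle, a ratio of 0.738 (0.676 to 0.805), not past the fold. Of 6 measured malignant states 3 were lower past the fold: state 5 with a ratio of 0.413 (0.312 to 0.541), state 1 with 0.458 (0.358 to 0.581) and state 4 with 0.632 (0.51 to 0.781). The highest vehicle cell of state 1 held 103 of its 261 UMIs. Without the highest cell of each library the ratios were 0.415 in state 5, 0.661 in state 1 and 0.669 in state 4, the last not past the fold.

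In fibroblasts Mmp13 had 57 UMIs in beta-elemene and 520 in vehicle, or 3.81 and 36.3 CPM, a ratio of 0.105 (0.0783 to 0.138). Its UMIs were in 21 beta-elemene and 35 vehicle cells. The highest cell had 10 UMIs in beta-elemene and 245 in vehicle, and the 5 highest vehicle cells held 408 of the 520. The 245 UMIs were in 1 cell of state 0, where 25 UMIs in beta-elemene stood against 250 in vehicle. Without that cell and the highest beta-elemene cell the state 0 ratio was 3.18. State 2 had 4 UMIs in beta-elemene and 132 in vehicle. Without the highest cell of each library the ratio was 0.164, and with at most 10 UMIs counted per cell it was 0.401. Mmp13 and Mmp12 were the 2 of 9 measured members past the fold in fibroblasts, where 4.21% of all genes were.

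Mmp12, which cuts elastin, was carried mostly by macrophages, which held 92.7% of it in beta-elemene and 90.2% in vehicle. They had 12993 UMIs at 368 CPM (362 to 375) in beta-elemene and 15827 UMIs at 432 CPM (425 to 439) in vehicle, a ratio of 0.853 (0.833 to 0.873). A UMI was found in 33% of beta-elemene and 36.5% of vehicle macrophages, against 2.1% and 3.04% of T and NK cells. Cells with at least 10 UMIs numbered 320 and 343, and the highest had 227 and 406. State 3 stood far above the other compared states at 2309 CPM in beta-elemene and 2718 CPM in vehicle, and held 49.1% and 57.6% of macrophage Mmp12 in 9.2% and 10.3% of the macrophages. Its leading genes Inhba, Cxcl3 and Nos2 encode an activin subunit, a chemokine that draws neutrophils and the inducible nitric oxide synthase. Mmp12 overlaps Mmp1b on the other strand, which had 27 and 53 UMIs in kept cells.

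Mmp12 and Mmp9 were both measured in macrophage states 0, 1, 3, 4 and 5. The Mmp12 ratios there were 1.27, 0.721, 0.85, 0.77 and 0.807 in that order, none past the fold. Of 9 states measured for Mmp12, 3 were higher in beta-elemene past the fold and none was lower. The 3 are states 2, 6 and 7, where Mmp9 had too few UMIs for a ratio. At sub-cluster resolution 1.0, of 14 states, 4 were higher and 2 lower, the lowest at 0.467, and at 0.3, of 5 states, 1 was higher. State 2, led by Cd163, Ednrb and Cbr2, had 130 UMIs in beta-elemene and 14 in vehicle, a ratio of 10.9 (6.28 to 20.5). Of the 130 UMIs 61 were in 1 cell, and without the highest cell of each library the ratio was 6.79. State 6, a shallow state led by AY036118, had 447 CPM in beta-elemene and 200 CPM in vehicle, a ratio of 2.23 (1.69 to 2.99). State 7, led by the interferon-induced Rsad2, Ifit2 and Cxcl10, had 307 and 121 CPM, a ratio of 2.53 (2.0 to 3.23). The highest cell held 113 of 353 beta-elemene UMIs in state 6 and 89 of 239 in state 7. At 5000 UMIs per cell Mmp12 was present in 41.5% of Mmp9-positive and 27.1% of Mmp9-negative beta-elemene macrophages, and in 44.9% and 27.8% in vehicle.

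Among the compared classes Mmp12 was next highest in dendritic cells, at 94.8 CPM (77.8 to 115) in beta-elemene and 65.5 CPM (52.4 to 80.9) in vehicle, and then in monocytes, at 36.3 and 50.2 CPM. Neither was past the fold, and the dendritic class held some cells led by B cell or macrophage genes, described below. Malignant cells had 472 UMIs at 5.92 CPM in beta-elemene and 833 UMIs at 8.93 CPM in vehicle, a ratio of 0.663 (0.591 to 0.743). Mmp12 was the 1 of 9 measured members past the fold in malignant cells, where 6.51% of all genes were. It was past the fold in 11 of 15 other settings, with 0.841 where 10 CPM was added to both libraries. Malignant state 7, led by S100a9, S100a8 and G0s2, held 132 and 141 of these UMIs, and without it the ratio was 0.578. The macrophage marker list summed to 292 CPM in beta-elemene and 266 CPM in vehicle malignant cells. Fibroblasts had 100 UMIs at 6.68 CPM in beta-elemene and 433 UMIs at 30.3 CPM in vehicle, a ratio of 0.221 (0.176 to 0.275). Of the 433 vehicle UMIs, 371 were in fibroblast state 9, whose leading genes S100a9, Lyz2 and Cd74 belong to myeloid cells, and 5 vehicle fibroblasts held 347. In that state the macrophage list summed to 4289 CPM in beta-elemene and 3427 CPM in vehicle and the neutrophil list to 4299 and 638 CPM, with 9 of 9 genes of each detected. Without fibroblast states 8 and 9 there were 69 and 55 Mmp12 UMIs, and the ratio was 1.24, so the direction turned.

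Mmp14, the membrane-bound enzyme that opens Mmp2 and cuts collagen at the cell surface, had the widest spread over classes. Fibroblasts had 394 CPM (384 to 404) in beta-elemene and 451 CPM (440 to 462) in vehicle. Endothelial cells had 162 and 146 CPM, macrophages 139 and 140 CPM, malignant cells 122 and 117 CPM, and monocytes 86.8 and 76.2 CPM. Neutrophils had 17.2 and 18.0 CPM and T and NK cells 7.5 and 13.8 CPM. Pericytes, with 48 and 46 cells, stood at 175 CPM (141 to 214) in beta-elemene and 299 CPM (252 to 352) in vehicle and were not compared. In the order of the compared classes the intervals of endothelial cells (146 to 179 in beta-elemene, 130 to 163 in vehicle) and macrophages (135 to 143 and 136 to 144) overlapped in vehicle and not in beta-elemene. Those of macrophages and malignant cells (120 to 125 and 115 to 119) overlapped in neither library. Mmp14 took the most cells of the 10 genes to hold 50% of its UMIs, 975 in beta-elemene and 1046 in vehicle. Its ratio was 0.873 (0.843 to 0.905) in fibroblasts, 0.99 (0.952 to 1.03) in macrophages and 1.04 (1.01 to 1.07) in malignant cells. Across 8 macrophage states the ratios were 0.727 to 1.21 and across 8 malignant states 0.861 to 1.17, none past the fold. In fibroblasts it was highest in state 0, at 597 CPM in beta-elemene and 683 CPM in vehicle, the state led by Gzme, Megf11 and Actg2.

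Dendritic cells were the class where Mmp14 was past the fold, with 35 UMIs in 130 beta-elemene cells and 81 UMIs in 133 vehicle cells. The levels were 30.7 CPM (21.4 to 42.7) and 61.7 CPM (49.0 to 76.7), a ratio of 0.498 (0.325 to 0.749). It was the 1 of 3 measured members past the fold there, where 8.78% of all genes were. The macrophage list summed to 825 CPM in beta-elemene and 1875 CPM in vehicle dendritic cells, with 8 and 9 of 9 genes detected, and the malignant list to 179 and 481 CPM. The class also held a sub-cluster of 15 beta-elemene and 5 vehicle cells whose leading genes include Igkc, Cd79a and Ms4a1, genes of B cells. In another sub-cluster, of 22 and 37 cells, C1qa of the macrophage list was among the leading genes. The part of these cells and lists in the Mmp14 value was not tested. Monocyte state 2, led by Cxcl3, Inhba and Il1a, was higher past the fold, with 120 CPM in beta-elemene and 75.2 CPM in vehicle, a ratio of 1.6 (1.1 to 2.36). The share of all genes past the fold was 5.07%, 8.42%, 6.5%, 7.23% and 7.19% in monocyte states 0 to 4.

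Mmp19, a secreted enzyme that cuts basement membrane proteins, was highest in monocytes. It had 785 UMIs at 172 CPM (161 to 185) in 629 beta-elemene cells and 738 UMIs at 184 CPM (171 to 198) in 544 vehicle cells, a ratio of 0.935 (0.845 to 1.04). A UMI was found in 48.2% and 50.2% of monocytes, whose median depth was 7009 and 6865 UMIs, and in 0.898% and 1.69% of T and NK cells. Fibroblasts followed at 105 CPM (100 to 111) and 102 CPM (97.3 to 108), and macrophages at 81.5 CPM (78.6 to 84.5) and 94.3 CPM (91.2 to 97.5). In beta-elemene the macrophage interval lay below that of fibroblasts, and in vehicle the intervals overlapped. Among the compared macrophage states it was highest in state 1, the Vcan and Hopx cells, at 149 CPM in beta-elemene and 167 CPM in vehicle. Of 8 macrophage states, only the interferon-led state 7 was past the fold, with 36 UMIs in beta-elemene and 84 in vehicle, a ratio of 0.454 (0.299 to 0.679). In that same state Mmp12 was higher in beta-elemene. No monocyte state was past the fold for Mmp19, with ratios of 0.778 to 1.32 in 5 states and 3.33% of all genes past it in monocytes as a whole. Mmp19 overlaps Gm47093 and Tmem198b on the other strand, and Timp1 overlaps Syn1, with the same limit as for Mmp11.

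Timp1, the secreted inhibitor of most of these enzymes, was by far highest in fibroblasts. It had 42245 UMIs at 2823 CPM (2796 to 2850) in beta-elemene and 40322 UMIs at 2818 CPM (2790 to 2845) in vehicle fibroblasts, a ratio of 1.0 (0.988 to 1.02). Fibroblasts held 80.6% of it in beta-elemene and 79.0% in vehicle, and 95.8% and 93.4% of them had a UMI, against 7.78% and 9.46% of T and NK cells. Its level differed widely between fibroblast states. State 2, led by Krt19, Pgf and Tafa2, had 5957 CPM in beta-elemene and 5756 CPM in vehicle, and state 1 had 797 and 804 CPM. Single cells of state 2 reached 601 UMIs in beta-elemene and 869 in vehicle. Mmp2, in contrast, was lowest in state 2 of the compared states. The malignant list summed higher in state 2 than in the other compared states, and its part in this contrast was not tested. Malignant cells had 106 CPM (104 to 109) in beta-elemene and 96.6 CPM (94.6 to 98.6) in vehicle, a ratio of 1.1 (1.07 to 1.14).

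In endothelial cells Timp1 was higher in beta-elemene, with 200 UMIs in 196 cells against 117 UMIs in 197 vehicle cells. The levels were 87.6 CPM (75.9 to 101) and 54.5 CPM (45.1 to 65.4), a ratio of 1.61 (1.27 to 2.04), and 44.4% and 34.5% of the cells had a UMI. It was the 1 of 2 measured members past the fold there, where 4.86% of all genes were. Without the highest cell of each library (20 and 7 UMIs) the ratio was 1.57. It was not past the fold with called doublets kept, at 1.23, and with each library clustered alone it was 0.883, so the direction turned. The fibroblast list summed to 236 and 232 CPM in these cells, and the malignant list, with 10 of 10 genes detected in each, to 403 CPM in beta-elemene and 146 CPM in vehicle. The part of malignant RNA in this value was not tested.

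The members grouped into few patterns when compared over 58 sub-clusters of all classes, both libraries pooled. The values are Pearson r of log2(CPM + 1) over sub-clusters that share 2 libraries and differ in depth, given as a description. Mmp2 was most like Col3a1, Col1a1 and Col1a2 (r = 0.96 each), the fibrillar collagen genes. Timp1 was most like Bdkrb1 and Tnc (0.95 each) and Col5a1 (0.94), and Mmp3 most like Sfrp1 (0.92), Shox2 and Efemp2 (0.91 each). Among the 10 genes Mmp2 and Timp1 had r = 0.87 and Mmp3 and Timp1 r = 0.83. Mmp12 was most like Arg1 (0.92), then Fcrlb and F7 (0.88 each), and Mmp13 most like Spp1 (0.7), Adamdec1 (0.69) and AU022793 (0.68). Mmp12 and Mmp13 themselves had r = 0.68. Mmp8 was most like Tarm1 (0.92), Trem1 and Trem3 (0.91 each), and Mmp19 most like Adora2b (0.9) and Lpar1 (0.86). Mmp11 was most like Arhgap42, Ltbp1 and Lrig1 (0.86 each) and Mmp14 most like Laptm4a, Itpripl2 and Vat1 (0.86 each). For Mmp9 the highest values, as low as those of Mmp13, were 0.7 with Egln3, 0.69 with Dhrs9 and 0.68 with Gadd45a, and with Mmp8, its fellow neutrophil transcript, r was 0.5.

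A wider list held 55 other Mmp genes, inhibitors, activators, relatives and substrates, of which 54 were in the files. In macrophages 4 of 32 measured were lower in beta-elemene past the fold and none was higher, where 2.42% of all genes were past it. The median log2 ratio was -0.18 over the list and -0.02 over all genes. The 4 were Mmp10, a stromelysin, at 0.992 CPM in beta-elemene and 2.13 CPM in vehicle, the inhibitor Timp3 at 1.45 and 2.18 CPM, the plasminogen activator Plat at 2.49 and 4.34 CPM and Ctsk at 8.65 and 14.8 CPM. These 4 genes were each higher in fibroblasts. Mmp10 stood there at 33.9 CPM in beta-elemene and 46.5 CPM in vehicle, and Timp3 at 432 and 524 CPM. Fibroblast Plat was at 343 and 341 CPM and Ctsk at 183 and 186 CPM. The part of free RNA in the 4 macrophage values was not tested. In malignant cells 1 of 39 was higher and 3 were lower, where 6.51% of all genes were past the fold. Lcn2, which binds and stabilises Mmp9, was higher at 733 CPM in beta-elemene and 425 CPM in vehicle, a ratio of 1.72 (1.7 to 1.75). Mmp10 was at 10.6 and 16.2 CPM, Mmp25 at 0.502 and 1.11 CPM and Serpine2, a protease inhibitor, at 30.5 and 66.0 CPM. In fibroblasts 1 of 44 was higher (Lcn2, 59.7 and 39.1 CPM) and 1 lower (Mmp25, 3.34 and 5.45 CPM). The share of all genes past the fold in fibroblasts was 4.21%. In neutrophils none of 22 was higher and 2 were lower, among them Mmp25 at 26.5 CPM in beta-elemene and 40.2 CPM in vehicle. In monocytes none of 21 was past the fold. The share of all genes past it was 4.43% in neutrophils and 3.33% in monocytes.

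In endothelial cells 2 of 32 wider-list genes were higher and 5 lower, where 4.86% of all genes were past the fold. Spp1, osteopontin, had the highest ratio, 2.61 (2.26 to 3.03), at 302 CPM in beta-elemene and 116 CPM in vehicle, and Lcn2 was also higher at 39.4 and 19.6 CPM. Serpine2 had the lowest ratio, 0.451, and Plau, Ctss, Adam19 and Eln were the others. In dendritic cells 3 of 14 were lower, where 8.78% of all genes were past the fold. They were Timp2 at 20.2 CPM in beta-elemene and 64.0 CPM in vehicle, Fn1 at 145 and 428 CPM and Spp1 at 191 and 452 CPM. Fn1 was highest in macrophages (2290 and 2880 CPM) and Spp1 in malignant cells (3737 and 3124 CPM). The marker lists of both classes summed lower in beta-elemene than in vehicle dendritic cells, and their part in these values was not tested. In T and NK cells 3 of 17 were higher, where 5.94% of all genes were past the fold: Lcn2 at 38.4 and 14.4 CPM, Spp1 at 606 and 370 CPM and Timp2 at 36.1 and 23.8 CPM. Lcn2 was thus higher in beta-elemene in T and NK cells, the measure of free RNA here, as it was in malignant, fibroblast and endothelial cells. Spp1 was highest in malignant cells, whose list summed higher in beta-elemene than in vehicle endothelial cells. The part of free RNA in the lower-level Lcn2 and Spp1 values was not tested, nor that of malignant RNA in endothelial Spp1.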

How the data were processed

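The deposited files are UMI count matrices of 2 libraries, 1 per group, made with Cell Ranger 7.1.0 per the file headers; the submitters' processing notes also name STAR and mm10. The strand setting, the number of tumours per library and any cell filter of the authors are not given in the sources used here. The counts were read as deposited. Cells with at least 200 genes and at most 20% mitochondrial UMIs were kept (scanpy 1.11.5), and doublets called by Scrublet (291 in beta-elemene, 335 in vehicle, or 2.68% and 3.1%) were left out.

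Both libraries were clustered together from 2000 variable genes, 30 principal components and 15 neighbours by the Leiden method at resolution 1.0 (leidenalg 0.10.2, igraph 0.11.9), without the 10 genes and the wider list. Clusters were named by fixed marker lists, and each class was clustered again at resolution 0.6 into states. A ratio is beta-elemene CPM over vehicle CPM of summed UMIs, with an exact interval at 95% that covers counting error only. A ratio needed 100 UMIs over both libraries, 100 cells per class and library and 50 cells per state and library, and was past the fold at 1.5. Floors use 3 counts. With 1 library per group no test was run. The ratio and its interval were tested on simulated class sums of macrophages and fibroblasts with known folds. These sums held counting error alone, so the unevenness between cells, the clustering and the naming were not tested by them. Intervals came from scipy 1.17.1, tables from pandas 2.3.3 and numpy 2.4.6, figures from matplotlib 3.10.9 and the neighbour search from scikit-learn 1.9.0, under Python 3.11.15. Promoter windows are from RefSeq tables of GRCm38.p6.

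The 10 genes, the lists and the alternatives were chosen with earlier results of these data known. Named were the 10 genes, the wider-list genes past the fold or with the highest or lowest ratio in a class, the 3 genes most like each member among those with at least 500 UMIs, and the leading genes of a state; a few that these rules pick are not reported here. Alternatives covered resolution, doublets, filters, scaling, the highest cell, free RNA and UMI minimums.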

Additional observations from a re-analysis of the deposited data

Results flagged for a closer look

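Mmp9 went opposite ways in 2 malignant states. In state 0, led by Iigp1 and Lcn2, it was lower in beta-elemene, with 756 UMIs at 41.2 CPM in 730 beta-elemene cells and 926 UMIs at 65.2 CPM in 581 vehicle cells, a ratio of 0.632 (0.573 to 0.696). In state 6, led by Gm15261 and other transcripts without a known protein, it was higher, with 234 UMIs at 91.3 CPM in 183 beta-elemene cells and 179 UMIs at 54.7 CPM in 251 vehicle cells, a ratio of 1.67 (1.37 to 2.04). Without the highest cell of each library (70 and 26 UMIs) the state 6 ratio was 1.36, which is not past the fold. At sub-cluster resolution 0.3 none of 6 malignant states was past the fold for Mmp9 (0.713 to 1.06). At 1.0, of 12 states, 1 was lower and 1 higher (0.646 and 1.95). Without the highest cell of each library the ratios at 1.0 ran from 0.659 to 1.38, so none was higher past the fold. The difference between the states was not tested, since each group is 1 library.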

How the results depend on the processing

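No paired analysis was possible because each group is 1 library and no test was run. The macrophage Mmp9 ratio of 0.314 moved by more than its counting interval to 0.513 at resolution 0.5, 0.796 with each library clustered alone, 0.354 with doublets kept and 0.488 at 500 genes and 10% mitochondrial UMIs. It was 0.24 as a mean over cells, 0.381 with 10 CPM added, 0.286 without the highest cell and 0.242 in the largest state alone. Chosen after seeing the data were a limit of 10 UMIs per cell (0.431), the unnamed cluster added (0.513) and macrophage states with markers of another class left out (0.31). It was below 1 in 17 of 17 settings and past the fold in 16. The remaining settings gave 0.297 to 0.318. The count of member and class pairs past the fold was 7, and 5 to 8 over the other clusterings, filters, scalings and choices of cells. Chosen after seeing the data, it was 4 at 2-fold, 12 of 49 pairs at 50 UMIs and 6 of 32 at 300 UMIs. The wider list had 25 of 221 pairs past the fold, 31 of 241 at 50 UMIs and 9 of 161 at 300 UMIs. All genes had 2966 of 62412 pairs past the fold, 6079 pairs at 50 UMIs, 911 at 300 UMIs and 502 at 2-fold. The all-gene pair totals of these other settings are not given here. Among single members, the fibroblast Mmp13 ratio ran from 0.0949 to 0.401, past the fold in 15 of 15 settings, and the dendritic Mmp12 ratio from 0.923 to 1.79, past it in 1 of 13. The cause of these moves was not tested. Of all values for single members and states, 646 stayed within the counting interval, 124 left it and 3 past the fold changed direction: endothelial Timp1 was 0.883 with each library clustered alone, fibroblast Mmp12 was 1.24 without states 8 and 9 and Mmp13 in fibroblast state 0 was 3.18 without the highest cell. That value of 3.18 rests on fewer UMIs than the minimum of 100 set for a ratio. Of ratios not past the fold, 18 pairs crossed 1 in 44 cases, dendritic Mmp12 among them. The other pairs past the fold ran from 0.395 to 0.681 for macrophage Mmp8, from 0.574 to 0.841 for malignant Mmp12 and from 0.38 to 0.638 for dendritic Mmp14. With 1 library per group, the spread between tumours is unknown and every interval is too narrow for it. Classes with few cells limit what can be seen: no member had 100 UMIs in T and NK cells.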
